A study of Mus musculus with 12 samples.

Results

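Messenger RNA levels of 10 circadian clock genes were examined in the livers of 12 male C57BL/6 mice, out of 47729 genes in the deposited count files. The genes were Arntl, Arntl2, Clock, Npas2, Per1, Per2, Per3, Cry1, Dbp and Nr1d1, and all 10 were among the 16823 genes that passed the filter on low counts. They were found by their gene symbols, and they were chosen by their known place in the clock at a time when their group differences in these same counts were already known, with Arntl2 singled out. Group differences in their levels are therefore given as a description, with fold changes and standard errors but with no p-values.

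The study asked how I-BET151, a small molecule that blocks the acetyl-lysine binding pockets of the BET bromodomain proteins, acts in a mouse model of non-alcoholic steatohepatitis (NASH). The healthy group (Naive_vehicle, WT) held 4 mice given vehicle. The vehicle group (STAM_vehicle) held 4 STAM mice, which had received streptozotocin at 2 days of age, a toxin of the insulin-producing beta cells, and a high-fat diet from 4 weeks of age. The I-BET151 group (STAM_treated) held 4 STAM mice given 10 mg/kg I-BET151 by mouth each day. Dosing ran from week 6 to week 9, and livers were taken at 9 weeks of age. All STAM mice carry both the streptozotocin and the diet, so the effects of these on the clock genes cannot be told apart. I-BET151 was suspended in hydroxypropyl methylcellulose with Tween 80 while the vehicle was methylcellulose, so drug and carrier cannot be told apart either. The hour of the day at which each liver was collected is not given in the sources used here.

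The clock is a feedback loop of transcription that runs in nearly every cell. ARNTL (also called BMAL1) or its relative ARNTL2 pairs with CLOCK or NPAS2, and the pair binds E-box motifs and activates the Per and Cry genes, Nr1d1 and Dbp. PER and CRY proteins then return to the nucleus and block the pair, while NR1D1 (also called REV-ERB alpha) represses Arntl, Clock and Npas2 through motifs that it shares with the ROR activators. DBP binds D-box motifs and passes the rhythm on to other genes, Per genes included. In mouse liver these messenger RNAs rise and fall over the day, with Arntl and Npas2 high when Dbp and the Per genes are low, so that a single liver gives a level at the hour of its collection and not a mean over the day. Bulk RNA adds all cells of the liver, so fewer cells of a type and less RNA per cell cannot be told apart.

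The upstream sequences of the genes with a motif match are shown first, because motifs of this loop are a route by which members act on each other. RefSeq (build GRCm38.p6) gave the upstream sequence for 9 of the 10 genes, and Per2 had no entry. In the 250 bases before a start site, both strands were searched for the E-box CACGTG, the D-box TTATGNAA and the ROR element core TAGGTCA. Matches were present in Per1, Per3 and Cry1, each printed below 5′ to 3′ on the strand of the gene with the motif in capitals.
Per1, chr11:69098699-69098948, plus strand: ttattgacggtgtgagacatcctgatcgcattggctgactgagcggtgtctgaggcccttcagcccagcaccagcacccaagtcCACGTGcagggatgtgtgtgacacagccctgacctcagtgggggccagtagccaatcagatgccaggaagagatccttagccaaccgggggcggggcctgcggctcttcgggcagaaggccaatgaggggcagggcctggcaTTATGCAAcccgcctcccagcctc
Per3, chr4:151044666-151044915, minus strand: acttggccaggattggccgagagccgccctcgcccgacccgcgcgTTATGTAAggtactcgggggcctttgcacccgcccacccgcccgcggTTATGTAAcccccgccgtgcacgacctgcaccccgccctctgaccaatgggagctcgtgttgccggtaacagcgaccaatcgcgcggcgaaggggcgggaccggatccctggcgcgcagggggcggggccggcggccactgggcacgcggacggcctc
Cry1, chr10:85185055-85185304, minus strand: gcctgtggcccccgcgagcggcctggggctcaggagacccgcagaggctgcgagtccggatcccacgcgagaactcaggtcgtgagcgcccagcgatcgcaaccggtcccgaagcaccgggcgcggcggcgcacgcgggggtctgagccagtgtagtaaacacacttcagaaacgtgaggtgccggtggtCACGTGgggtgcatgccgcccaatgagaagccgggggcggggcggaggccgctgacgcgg

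In Per1 the E-box began 166 bases and the D-box 24 bases before the start of this transcript. This Per1 window lies inside the longest annotated Per1 gene model, and the next Per1 start in the table had no match. Per3 held 2 D-boxes, which began 205 and 158 bases before its start, and Cry1 held an E-box that began 60 bases before its start. Over all genes in the table, 6.86% of 27025 had an E-box, 3.63% a D-box and 2.55% a ROR element core in such a window. Among the members 2 of 9 had an E-box, 2 of 9 a D-box and 0 of 9 a ROR element core. The Arntl2 and Npas2 windows also lay wholly inside their gene models. The Clock windows lay wholly or mostly inside its gene model, except the outermost, and 159 of the 250 Dbp bases lay in Dbp exons. These are matches of letters, not mapped binding sites, and a lack of a match says only that these letters are not in this window.

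The deposited counts summed to between 34711229 and 53365596 per mouse. The library of I-BET151 mouse 3 stood apart from the others. Its 10 most abundant genes took 7.95% of its counts, against 13.5 to 18.0% in the other 11 mice, and its TMM factor, which scales a library for its composition, was 1.61 against 0.77 to 1.11. Of all 16823 tested genes, 62.6% had their highest or lowest level of the 12 mice in this library, and so did 9 of the 10 clock genes. The 5 hepatocyte markers Alb, Apoa1, Ttr, Trf and Cps1 were present in all mice and summed to 17707 CPM (counts scaled to a common library size) in this mouse, against 45985 to 78821 in the other STAM mice and 96358 to 112368 in healthy mice. Its part in the clock gene values was not tested beyond leaving it out, and values that rest on it are given below with and without it.

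CPM on TMM-scaled libraries compare 1 gene between mice, and the same values per kilobase of exon (RPKM) allow levels to be compared between genes. Nr1d1 was the most abundant with a mean of 36.5 RPKM over the 3 groups, followed by Per1 at 15.9, Dbp at 11.1 and Per2 at 9.99. Per3 at 3.91, Clock at 2.95, Cry1 at 2.64 and Arntl at 1.65 RPKM formed the middle of the order. Arntl2 at 0.392 RPKM and Npas2 at 0.269 RPKM were the lowest. The mice of Per1, Dbp and Per2, neighbours in this order, overlapped in all 3 groups, and each of the other neighbouring pairs overlapped in at least 1 group, so the order is not fixed mouse by mouse.

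**Figure D1:**
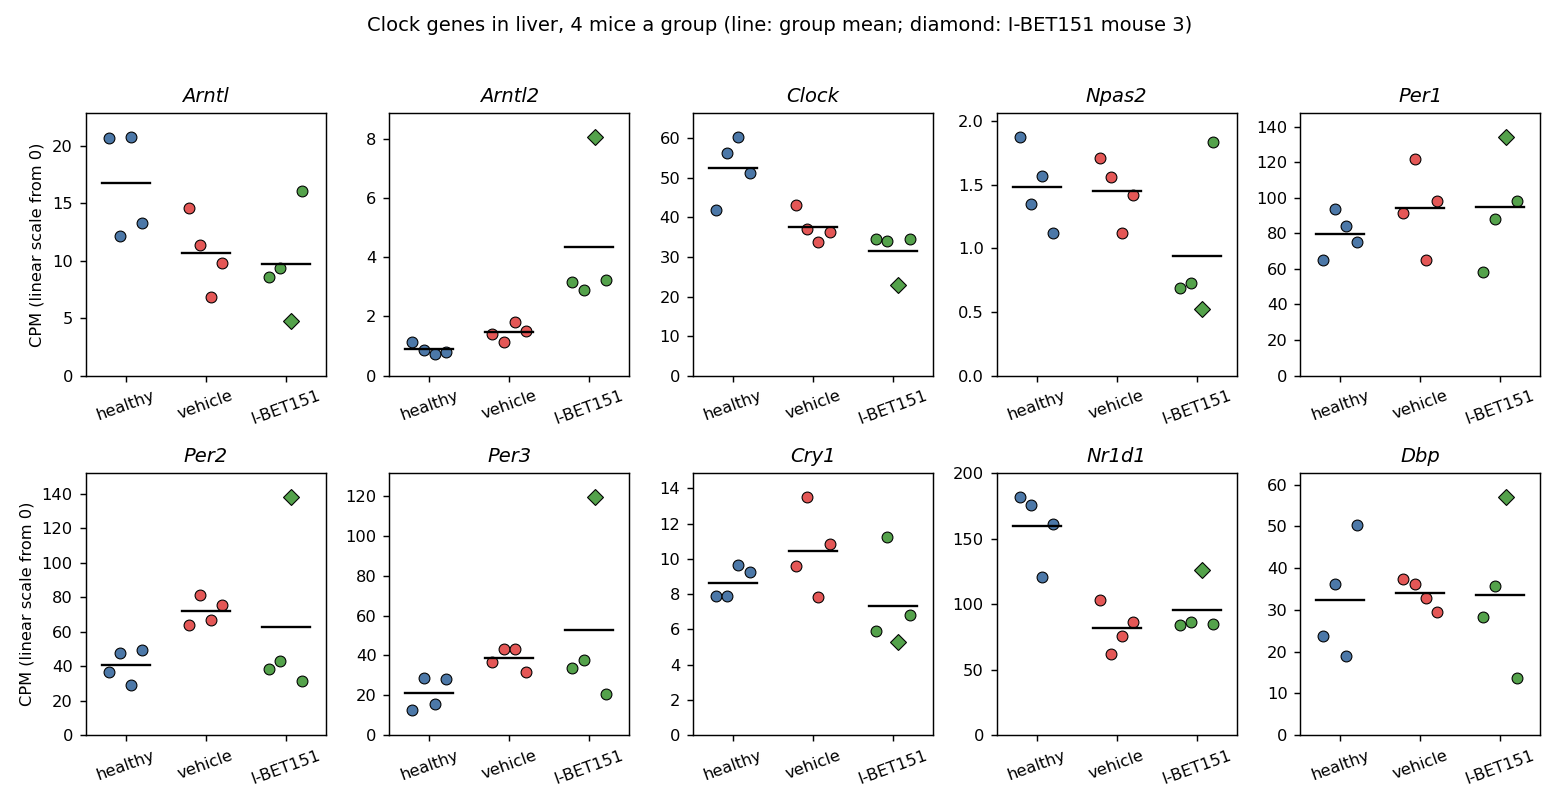
CPM (vertical axis, linear from 0, own scale per panel) of the 10 clock genes in each of 4 healthy, 4 vehicle and 4 I-BET151 mice, with lines at the group means and a diamond for I-BET151 mouse 3. Arntl2 lies between 0.727 and 1.80 CPM in all healthy and vehicle mice and between 2.89 and 8.07 CPM in the I-BET151 mice, and the diamond lies at an end of the I-BET151 group in every panel.

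Among the activators, Arntl2 had its highest levels in the I-BET151 mice. Arntl2 (ENSMUSG00000040187, chromosome 6, 146796055 to 146833529, plus strand) encodes a less studied partner of CLOCK. It stood at 1.13, 0.874, 0.727 and 0.805 CPM in healthy mice 1 to 4, at 1.42, 1.12, 1.80 and 1.51 CPM in the vehicle mice and at 3.17, 2.89, 8.07 and 3.24 CPM in the I-BET151 mice. Every I-BET151 mouse was above every vehicle mouse, while vehicle mouse 2 and healthy mouse 1 met at 1.12 and 1.13 CPM. These values rest on 25 to 93 reads per mouse in the healthy and vehicle groups and on 96 to 450 reads in the I-BET151 group. The group means were 0.883 ± 0.174, 1.46 ± 0.278 and 4.34 ± 2.49 CPM (SD, n = 4). The I-BET151 mean was 2.98-fold that of the vehicle group, a log2 fold change of 1.57 (SE 0.32). The vehicle group was 1.64-fold above healthy, a log2 fold change of 0.72 (SE 0.34), which was 0.27 with sequencing lane as a covariate. Lane was largely confounded with group. Lane 8 held only healthy mice 2 and 3, lane 4 only vehicle mouse 2, and lane 2 alone held both a healthy and a vehicle mouse. Values with lane as a covariate, here and below, thus rest on few mice and cannot separate lane from group.

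The size of the Arntl2 difference depended on I-BET151 mouse 3, and its direction did not. Without that mouse the I-BET151 mean was 3.10 ± 0.184 CPM (SD, n = 3), and the fold over vehicle was 2.13, a log2 fold change of 1.09 (SE 0.20). Over the 12 fits that each left out 1 mouse, the log2 fold change lay between 1.09 and 1.71. A vehicle and an I-BET151 mouse shared a sequencing lane in 3 cases, and the I-BET151 mouse had 2.24, 4.48 and 2.15 times the Arntl2 level of its lane partner. Of 5 T cell markers, 1 was lower and none higher past the threshold in I-BET151 mice. Their sum was 1.70 to 2.42 CPM there against 4.27 to 6.30 CPM in vehicle mice. The hepatocyte markers passed the threshold in neither direction, although their sum was lowest in I-BET151 mouse 3, as given above. No tested macrophage, neutrophil, stellate and fibroblast, endothelial or cholangiocyte marker passed either. The part of cell composition in the Arntl2 values was not tested.

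Arntl, the main partner of CLOCK, was lower on average in both STAM groups than in healthy mice, with overlap. Arntl (ENSMUSG00000055116, chromosome 7, 113207465 to 113314126, plus strand) stood at 20.7, 12.2, 20.8 and 13.3 CPM in healthy mice, so that the healthy group held a high pair and a low pair. Its exons share 33 bases with Gm45355 on the opposite strand, which was not analysed here. It stood at 14.6, 11.4, 6.83 and 9.82 CPM in vehicle mice and at 8.61, 9.40, 4.73 and 16.1 CPM in I-BET151 mice. Its log2 fold change was -0.65 (SE 0.32) for vehicle against healthy and -0.14 (SE 0.32) for I-BET151 against vehicle, and the latter became 0.10 (SE 0.28) without I-BET151 mouse 3. Arntl2 was at 0.0350 to 0.0717 of the Arntl CPM in healthy mice, at 0.0969 to 0.263 in vehicle mice and at 0.201 to 1.70 in I-BET151 mice. These ratios of CPM do not allow for exon length, so they compare mice and not the levels of the 2 genes. Per kilobase of exon, Arntl2 exceeded Arntl in 1 mouse, I-BET151 mouse 3, at 1.42 against 0.629 RPKM.

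Clock had a lower mean in the STAM groups. Clock (ENSMUSG00000029238, chromosome 5, 76209868 to 76304792, minus strand) encodes a partner protein of ARNTL and ARNTL2. It stood at 41.9, 56.4, 60.3 and 51.4 CPM in healthy mice, at 43.2, 37.1, 33.9 and 36.2 CPM in vehicle mice and at 34.6, 33.9, 22.9 and 34.7 CPM in I-BET151 mice. Healthy mouse 1 lay below vehicle mouse 1, and the other healthy mice lay above all STAM mice. The log2 fold change of Clock was -0.48 (SE 0.16) for vehicle against healthy and -0.25 (SE 0.16) for I-BET151 against vehicle. The former was -0.15 with sequencing lane as a covariate, and the latter was -0.12 (SE 0.12) without I-BET151 mouse 3. In I-BET151 mice 1, 2 and 4 Clock varied by a factor of 1.02 between the lowest and the highest.

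Npas2, which can stand in for CLOCK, differed little between vehicle and healthy mice. Npas2 (ENSMUSG00000026077, chromosome 1, 39193731 to 39363236, plus strand) was counted 24 to 88 times per mouse. It stood at 1.87, 1.35, 1.57 and 1.12 CPM in healthy mice and at 1.71, 1.56, 1.12 and 1.42 CPM in vehicle mice. In the I-BET151 group 3 mice were below all other mice of the study, at 0.685, 0.723 and 0.520 CPM, and mouse 4 stood at 1.84 CPM. For I-BET151 against vehicle the log2 fold change was -0.63 (SE 0.35), and it was -1.18 without I-BET151 mouse 4 and -0.41 without mouse 3.

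The repressors Per2 and Per3 were higher in every vehicle mouse than in every healthy mouse. Per2 (ENSMUSG00000055866, chromosome 1, 91415982 to 91459324, minus strand) stood at 36.7, 47.5, 29.2 and 49.2 CPM in healthy mice and at 64.0, 81.6, 66.9 and 75.3 CPM in vehicle mice, a log2 fold change of 0.82 (SE 0.38), which was 0.47 with sequencing lane as a covariate. In I-BET151 mice it stood at 38.3, 43.2, 138 and 31.6 CPM, so that 3 of these mice were below all vehicle mice and mouse 3 was above all. The log2 fold change of Per2 for I-BET151 against vehicle was -0.19 (SE 0.38) with all mice and -0.92 (SE 0.18) without mouse 3. The size of this Per2 difference thus depended on mouse 3, and without mouse 4 its sign turned, to 0.03.

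Per3 followed Per2 in the vehicle group. Per3 (ENSMUSG00000028957, chromosome 4, 151003652 to 151044665, minus strand), the gene with 2 D-boxes in its upstream window, stood at 12.6, 28.6, 15.6 and 28.1 CPM in healthy mice and at 36.5, 43.01, 43.1 and 31.8 CPM in vehicle mice. This made a log2 fold change of 0.87 (SE 0.44), and the healthy mice again formed a low pair, 1 and 3, which was the pair with high Arntl. In I-BET151 mice Per3 stood at 33.6, 37.6, 120 and 20.5 CPM. Against vehicle, its log2 fold change was 0.45 (SE 0.44) with all mice and -0.33 (SE 0.28) without mouse 3, so the sign of this difference changed with that mouse.

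Per1 and Cry1 overlapped between groups. Per1 (ENSMUSG00000020893, chromosome 11, 69095217 to 69109960, plus strand), which also responds quickly to hormones and light in many tissues, had means of 79.7 ± 12.2, 94.1 ± 23.3 and 94.8 ± 31.2 CPM (SD, n = 4) in healthy, vehicle and I-BET151 mice. Its lowest mouse of all was I-BET151 mouse 1 at 58.5 CPM and its highest was I-BET151 mouse 3 at 134 CPM. Cry1 (ENSMUSG00000020038, chromosome 10, 85131700 to 85185064, minus strand), which encodes the stronger repressor partner of the PER proteins, had means of 8.65 ± 0.904, 10.4 ± 2.39 and 7.32 ± 2.68 CPM (SD, n = 4). In I-BET151 mice Cry1 stood at 5.93, 11.2, 5.31 and 6.82 CPM, so that 3 of them were below all vehicle mice, the lowest of which was at 7.83 CPM. The log2 fold change of Cry1 for I-BET151 against vehicle was -0.52 (SE 0.23), and that of Per1 was 0.01 (SE 0.24). Without mouse 3 these were -0.38 (SE 0.22) and -0.20 (SE 0.21). For vehicle against healthy Cry1 stood at 0.27 (SE 0.23) and Per1 at 0.24 (SE 0.24), and with sequencing lane as a covariate at 0.62 and 0.37.

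Nr1d1, the repressor of the stabilising loop, was lower in every vehicle mouse than in every healthy mouse. Nr1d1 (ENSMUSG00000020889, chromosome 11, 98767932 to 98775333, minus strand) stood at 182, 175, 120 and 161 CPM in healthy mice and at 103, 61.5, 75.9 and 86.2 CPM in vehicle mice. The vehicle mean was 81.7 ± 17.6 CPM against 160 ± 27.7 CPM in healthy mice (SD, n = 4), a log2 fold change of -0.97 (SE 0.20), or 1.95-fold lower. In I-BET151 mice Nr1d1 stood at 84.0, 86.3, 126 and 84.5 CPM, within the range of the vehicle mice but for mouse 3. The log2 fold change for I-BET151 against vehicle was 0.22 (SE 0.20) and became 0.07 (SE 0.17) without that mouse. In the lane that held a mouse of both groups, the vehicle mouse had 0.474 times the Nr1d1 level of the healthy mouse. In the same comparison 3 of 5 macrophage markers passed as higher, with a sum of 292 to 520 CPM in vehicle against 179 to 253 CPM in healthy mice. Of the T cell and of the stellate and fibroblast markers, 1 each passed as higher. The hepatocyte markers summed to 45985 to 68421 CPM in vehicle against 96358 to 112368 CPM in healthy mice, and none of them passed. The part of these cell types in the Nr1d1 value was not tested. The exons of Nr1d1 share 263 bases with those of Thra on the opposite strand, a gene with 12990 counts over all mice against 58666 for Nr1d1. The library kit keeps the strand, but the strand setting of the counting is not given in the sources used here.

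Dbp, the output factor that binds D-boxes, had means of 32.3, 33.999 and 33.6 CPM in healthy, vehicle and I-BET151 mice and a different spread in each. The I-BET151 mean was 25.8 CPM without mouse 3. Dbp (ENSMUSG00000059824, chromosome 7, 45705088 to 45710203, plus strand) stood at 23.7, 36.3, 19.0 and 50.2 CPM in healthy mice, at 37.5, 36.1, 32.9 and 29.5 CPM in vehicle mice and at 28.3, 35.6, 57.1 and 13.6 CPM in I-BET151 mice. The coefficient of variation was 43.3% among healthy mice, 10.5% among vehicle mice and 53.9% among I-BET151 mice. The log2 fold changes were 0.07 (SE 0.36) for vehicle against healthy and -0.01 (SE 0.36) for I-BET151 against vehicle. The latter was -0.39 (SE 0.33) without I-BET151 mouse 3 and 0.25 without I-BET151 mouse 4. The former turned to -0.13 with sequencing lane as a covariate, so neither sign was steady. Dbp shares 539 exon bases with Sphk2 on the opposite strand, and Sphk2 had 43214 counts over all mice against 17962 for Dbp. The part of this overlap in the Dbp counts was not tested.

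**Figure D2:**
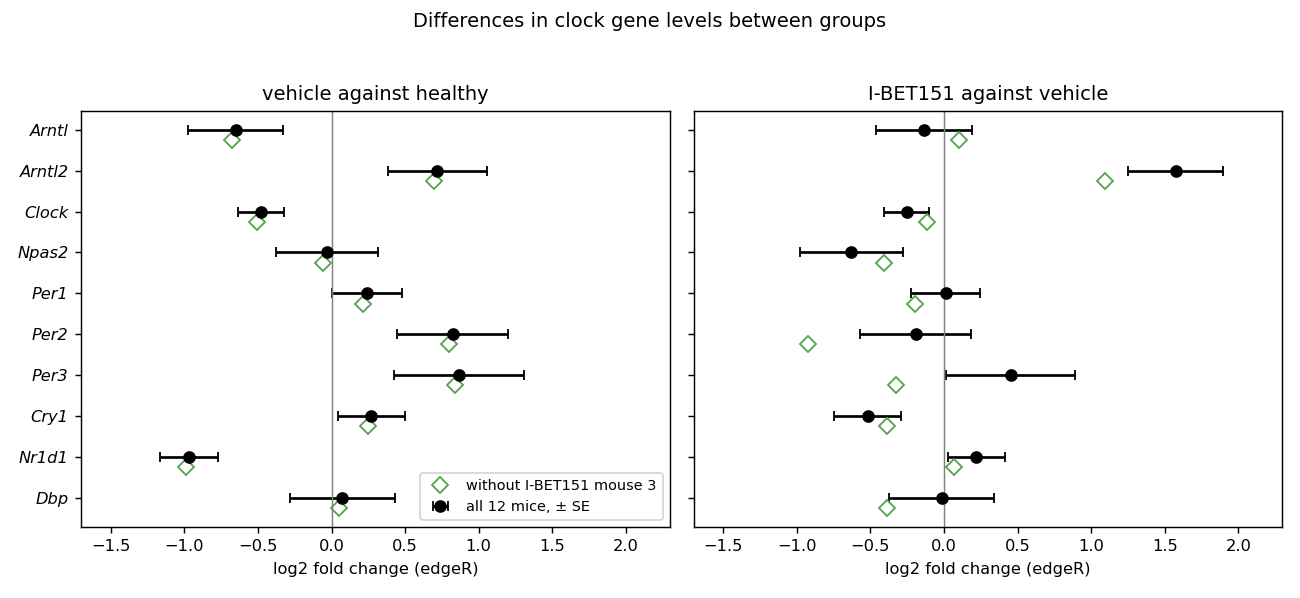
Log2 fold change (horizontal axis, edgeR) of each clock gene between vehicle and healthy mice (left) and between I-BET151 and vehicle mice (right), with bars of 1 SE from all 12 mice and open diamonds for the value without I-BET151 mouse 3. Leaving out that mouse hardly moves the left panel and moves Per2 to -0.92, Per3 to -0.33, Dbp to -0.39 and Arntl2 to 1.09 in the right panel.

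The count of members past the study's thresholds was read only against the share of all genes. For vehicle against healthy (adjusted p at most 0.05, edgeR), 7.1% of all tested genes passed and 1 of the 10 members did, Nr1d1. For I-BET151 against vehicle (adjusted p at most 0.1), 0.351% of all tested genes passed and 1 of the 10 members did, Arntl2. Without I-BET151 mouse 3, 22.3% of 16967 tested genes and 5 members (Arntl2, Clock, Nr1d1, Per2 and Per3) passed for vehicle against healthy, and 2.38% of genes and 2 members (Arntl2 and Per2) passed for I-BET151 against vehicle. The mice of both groups did not overlap for 3 members (Per2, Per3 and Nr1d1) in vehicle against healthy, beside 26.4% of all genes, and for 1 member (Arntl2) in I-BET151 against vehicle, beside 5.04% of all genes. Since the members were chosen with these differences known, nothing is read from these counts. Both comparisons use the same vehicle mice.

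Arntl2 under I-BET151 was close to the threshold. The fits below share mice, and the members were chosen with these differences known, so passing again is no separate support. Nr1d1 passed for vehicle against healthy in all 12 fits that left out 1 mouse. Arntl2 passed for I-BET151 against vehicle in 3 of 12 such fits, those without healthy mouse 1, I-BET151 mouse 2 or I-BET151 mouse 3, and leaving out any of the other 9 mice ended the call. Without healthy mouse 1, Clock passed as well as Nr1d1 for vehicle against healthy, which made 2 members, beside 1237 of 17111 genes in that fit. With sequencing lane as a covariate no member passed in either comparison, beside 37 and 0 of all genes. Lane and group were largely confounded, so that fit cannot separate them. In a fit of the I-BET151 and vehicle mice alone Arntl2 did not pass, beside 8 of all genes.

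**Figure D3:**
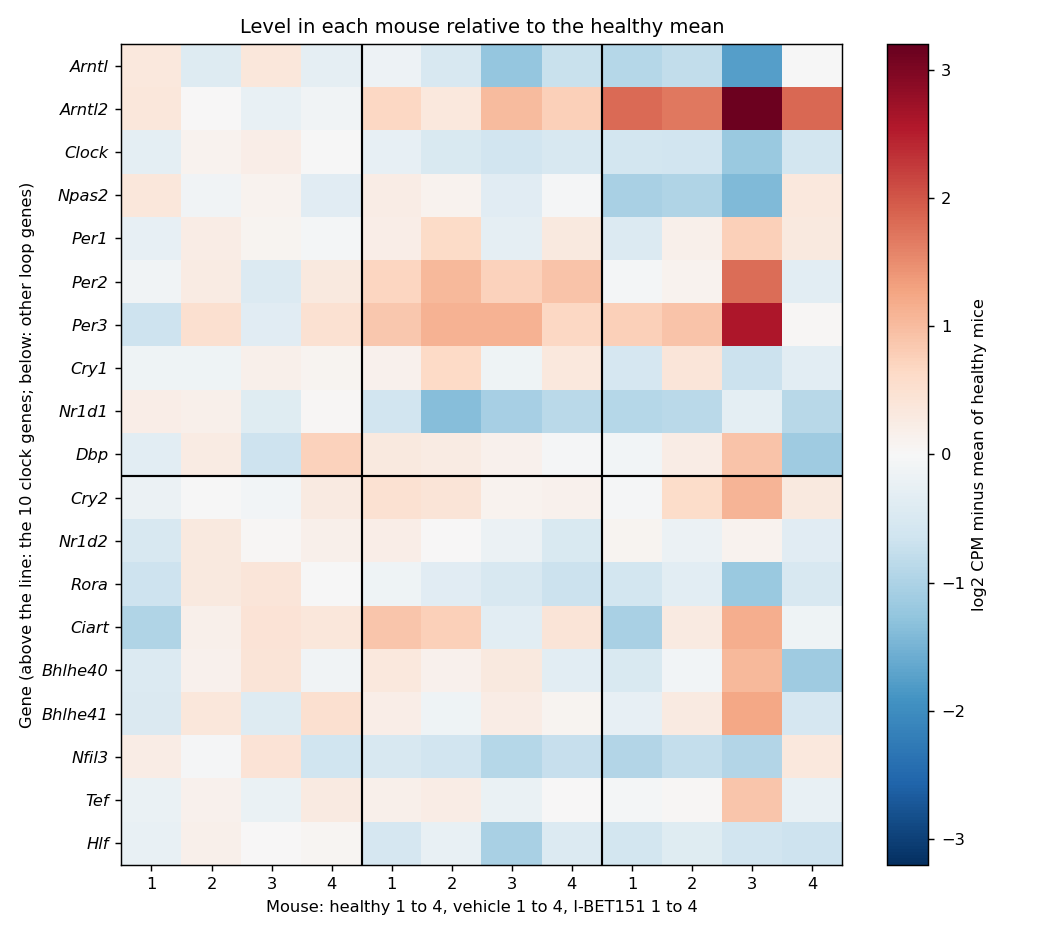
Log2 CPM of the 10 clock genes and 9 further loop genes in each mouse (columns) minus the mean of the healthy mice, red above and blue below it. The column of I-BET151 mouse 3 is the most strongly coloured for Arntl2, Per2 and Per3 (red) and for Arntl (blue), and the row of Arntl2 is red in all I-BET151 mice.

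Mice of the same group differed among themselves, and this variation was tested since it is separate from the group differences by which the members were known. Deviations of log2 CPM from the group mean were correlated over the 12 mice for 6 pairs with Arntl, with two-sided exact permutation of the mice within groups and Benjamini-Hochberg adjustment over the 6. Arntl and Npas2 varied together, with Pearson's r = 0.891 (exact permutation p = 0.00145, adjusted p = 0.00868) and Spearman's rho = 0.874 (exact permutation p = 0.00203, adjusted p = 0.0122). Without the 2 mice farthest from the median of Arntl, which were I-BET151 mice 3 and 4, r was 0.893 over the other 10 (exact permutation adjusted p = 0.0625). The size of this relation thus did not rest on those mice, although it no longer passed. The within-group r of other gene pairs was not computed. Whether this relation or those below are particular to clock genes was therefore not tested.

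Arntl and Per3 varied in opposite directions, with r = -0.860 (exact permutation p = 0.00911, adjusted p = 0.0273) and rho = -0.783 (exact permutation p = 0.0126, adjusted p = 0.0378). Without the same 2 mice r was -0.673 (exact permutation adjusted p = 0.359), and without I-BET151 mouse 3 alone it was -0.761 (exact permutation adjusted p = 0.0747), so the relation rests in part on these mice. The Per3 CPM was 0.607, 2.34, 0.751 and 2.11 times the Arntl CPM in healthy mice, 2.49, 3.78, 6.31 and 3.24 times in vehicle mice and 3.90, 4.00, 25.3 and 1.27 times in I-BET151 mice. All vehicle mice were above all healthy mice in this ratio, and the I-BET151 mice held both the highest value of the STAM mice and the lowest.

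The other 4 pairs did not pass. Arntl against Dbp gave r = -0.766 (rho = -0.650, exact permutation p = 0.0267 and 0.0501, adjusted p = 0.0534 and 0.0751), and r was -0.435 without the 2 mice. Arntl against Arntl2 gave r = -0.617 (rho = -0.469, exact permutation p = 0.145 and 0.174, adjusted p = 0.174 and 0.209), and r was -0.276 without the 2 mice. Arntl against Clock gave r = 0.571 (rho = 0.685, exact permutation p = 0.134 and 0.0376, adjusted p = 0.174 and 0.0751), and r was 0.223 without them. Arntl against Nr1d1 gave r = -0.339 (rho = -0.350, exact permutation p = 0.333 and 0.318, with adjusted values equal to these), and r was 0.04 without them. No lane held more than 3 mice, so these relations could not be computed within lanes.

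**Figure D4:**
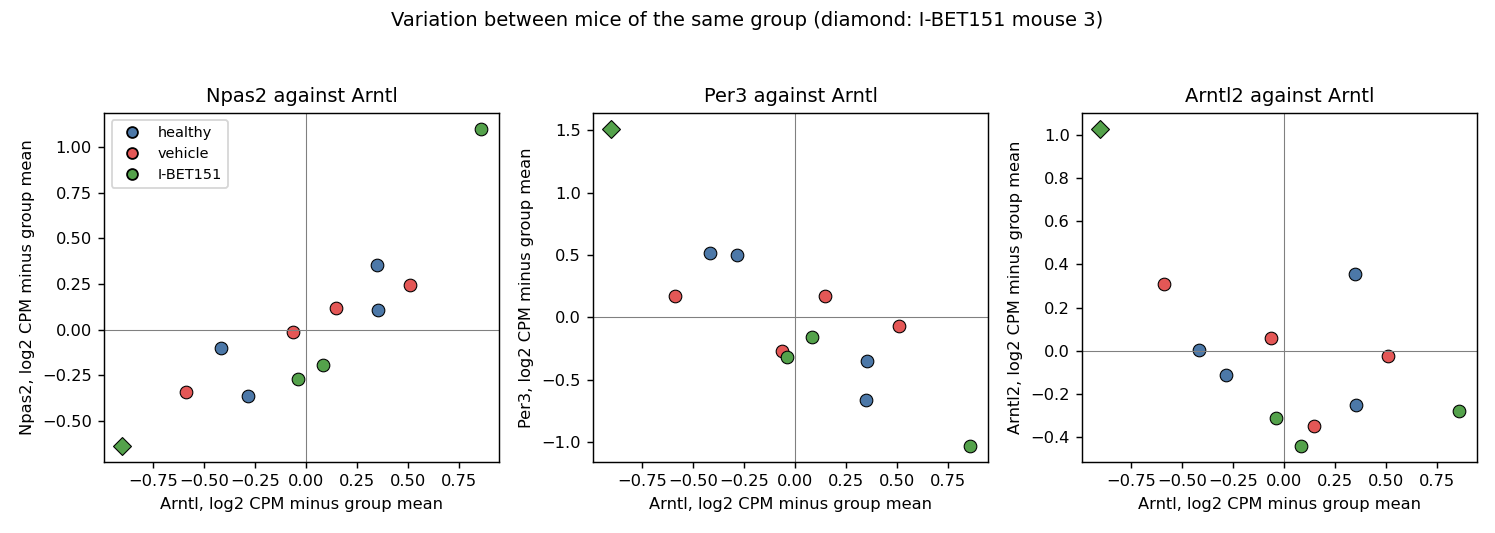
Npas2, Per3 and Arntl2 (vertical axes) against Arntl (horizontal axis) in each mouse, all as log2 CPM minus the mean of the mouse's own group, coloured by group. Npas2 rises and Per3 falls along the Arntl axis with I-BET151 mice 3 (diamond) and 4 at the ends, while the Arntl2 panel is set apart mainly by mouse 3.

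The rest of the clock pathway was described from lists. Of 40 further genes in 4 lists, 39 were tested, and Rorb, a ROR activator known from brain and retina, had no counts. For vehicle against healthy 2 of the 39 rose and none fell, which is 5.13% beside 7.1% of all genes, and 8 passed in a fit of the vehicle and healthy mice alone, beside 3879 of 16198 genes in that fit. The median log2 fold change of the 39 was -0.09, against 0.01 for all tested genes. For I-BET151 against vehicle none of the 39 passed by edgeR, beside 0.351% of all genes, 2 had an unadjusted p under 0.05, and DESeq2 called 1, Noct. The median was then -0.05 against 0.02 for all tested genes.

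Of 11 other loop components, 10 were tested and none passed in either comparison. The largest difference for vehicle against healthy was that of Nfil3, the repressor that competes with DBP for D-boxes, at -0.74 (SE 0.29, edgeR adjusted p = 0.142). For I-BET151 against vehicle the largest were those of Bhlhe41, an E-box repressor, at 0.26 (SE 0.35, edgeR adjusted p = 0.906), and Cry2 at 0.25 (SE 0.21, adjusted p = 0.809). Without I-BET151 mouse 3, Bhlhe41 changed sign to -0.24 and Cry2 was at 0.02. Nfil3 was 12.3 to 13.9 CPM in 3 I-BET151 mice and 30.2 CPM in mouse 4, the mouse that also had the highest Arntl and Npas2 of its group.

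None of the 8 kinases and ubiquitin ligases that set the stability of the PER and CRY proteins passed in either comparison. Fbxl21, a ligase for CRY, had a log2 fold change of -0.47 (SE 0.29, edgeR adjusted p = 0.373) for vehicle against healthy and of 0.22 (SE 0.29, adjusted p = 0.897) for I-BET151 against vehicle. Csnk1e, a kinase for PER, stood at 0.43 (SE 0.25, edgeR adjusted p = 0.342) and 0.29 (SE 0.25, adjusted p = 0.809). Both I-BET151 values turned negative without I-BET151 mouse 3, to -0.13 for Fbxl21 and -0.08 for Csnk1e.

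The 2 genes that passed were among the 12 rhythmic output genes of the liver. Alas1, the rate-limiting enzyme of haem synthesis, rose 2.18-fold in vehicle against healthy mice (log2 fold change 1.12, SE 0.27, edgeR adjusted p = 0.0234). It was 346 to 741 CPM in healthy and 813 to 1319 CPM in vehicle mice, with no overlap. Cyp7a1, the rate-limiting enzyme of bile acid synthesis, rose 1.88-fold (log2 fold change 0.91, SE 0.25, edgeR adjusted p = 0.045), from 111 to 183 CPM in healthy mice to 168 to 381 CPM in vehicle mice. Both calls were unsteady, since Alas1 passed in 6 of the 12 fits that left out 1 mouse (not without healthy mouse 1, 3 or 4 or vehicle mouse 2, 3 or 4) and Cyp7a1 in 4 (those without healthy mouse 1, vehicle mouse 3 or I-BET151 mouse 2 or 3). Without I-BET151 mouse 3, 6 of the 39 passed, Alas1 and Cyp7a1 among them, which is 15.4% beside 22.3% of all genes in that fit.

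Noct, which encodes a rhythmic phosphatase of the liver also called nocturnin, had the largest difference of its list for I-BET151 against vehicle. It stood at 37.2, 59.9, 35.6 and 58.1 CPM in vehicle mice and at 11.997, 16.4, 32.4 and 7.81 CPM in I-BET151 mice, so that the groups did not overlap. Its log2 fold change of -1.48 (SE 0.37) did not pass (edgeR adjusted p = 0.169), and without I-BET151 mouse 3 it was -1.98 and passed. Elovl3, a fatty acid elongase, followed with -0.96 (SE 0.55, edgeR adjusted p = 0.669).

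The glucocorticoid-responsive genes were included because glucocorticoid varies over the day and acts on Per1. None of the 9 passed in either comparison. Tsc22d3 had a log2 fold change of -0.73 (SE 0.31, edgeR adjusted p = 0.186) and Mt2 of 0.54 (SE 0.79, adjusted p = 0.733) for vehicle against healthy. For I-BET151 against vehicle Mt2 stood at 1.15 (SE 0.80, edgeR adjusted p = 0.759) and Mt1 at 0.91 (SE 0.66, adjusted p = 0.775). Both metallothionein values depended on I-BET151 mouse 4, without which they were -0.78 and -0.52.

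**Figure D5:**
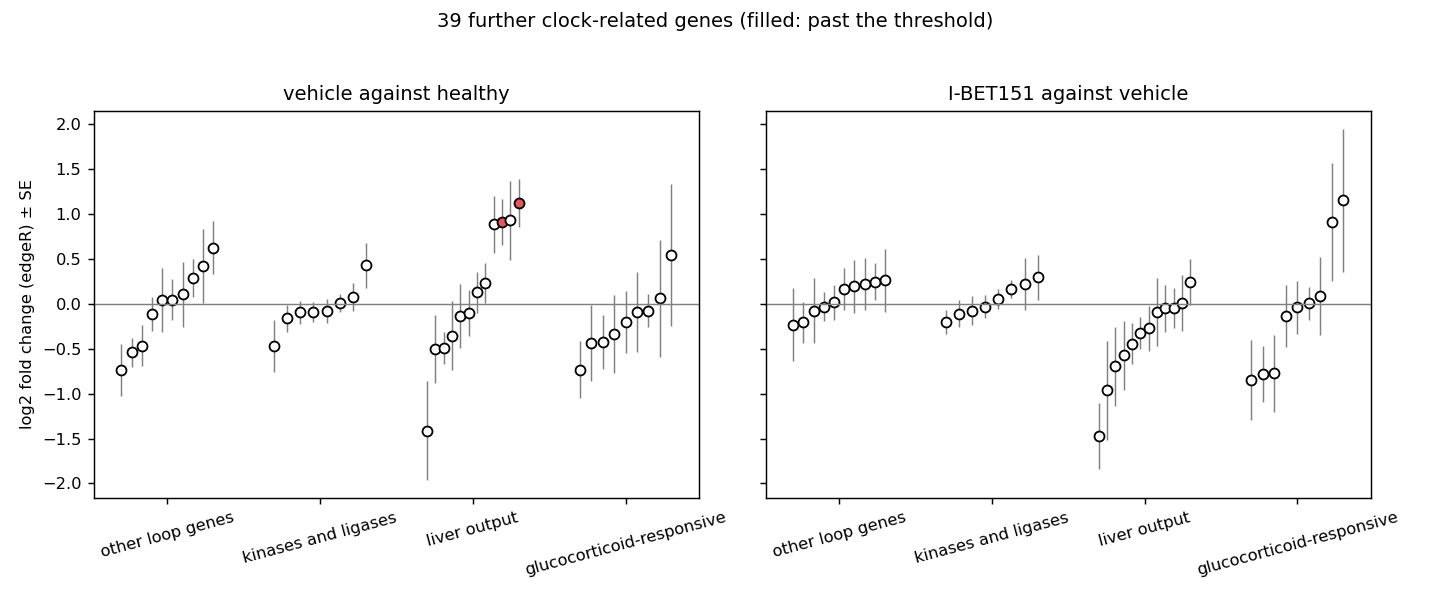
Log2 fold change with 1 SE (vertical axis, edgeR) of 39 further clock-related genes in 4 lists, between vehicle and healthy mice (left) and between I-BET151 and vehicle mice (right), with filled points for genes past the threshold. The filled points are Alas1 at 1.12 and Cyp7a1 at 0.91 on the left, no point is filled on the right, and the lowest point on the right is Noct at -1.48.

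Genes with the most similar pattern over the 12 mice were named for Arntl2, Arntl and Dbp as a description, out of 13130 tested genes with a mean of at least 1 CPM. The closest to Arntl2 by Pearson's r of log2 CPM were Thsd1 (0.967), Cyb5r1 (0.963), Smg5 (0.963), Gtf2ird1 (0.956) and Azin2 (0.954). Cyb5r1 had means of 8.28, 12.7 and 23.8 CPM in healthy, vehicle and I-BET151 mice, the same order as Arntl2. The closest to Arntl were Eif1 (0.955), Pole4 (0.942), Insig2 (0.941), Fam234a (0.938) and Wbp1l (0.936). Insig2, a brake on cholesterol synthesis that had also been listed as a rhythmic output gene, had means of 471, 332 and 311 CPM. The closest to Dbp were Iffo2 (0.888), Zfp983 (0.884), Bhlhe41 (0.877), Inmt (0.868) and Gm20688 (0.856). These points share the group differences and the composition of I-BET151 mouse 3, and without that mouse the same pairs had r between 0.850 and 0.967.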

How the data were processed

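Liver RNA from 12 mice in 3 groups of 4 was sequenced with a stranded TruSeq mRNA kit as paired-end reads. The authors mapped reads with STAR 2.5.1b to mm10. The deposited values are raw counts per Ensembl gene of uniquely mapped reads, made with htseq-count per the methods. The deposited counts carry the name featuresCounts instead, so the counting tool is uncertain. The strand setting and annotation release are not given in the sources used here. The authors left out an I-BET151 library because of its low gene counts. The sources do not identify it, and all 12 were kept here. The lowest total in the I-BET151 group was 34711229 in mouse 3, followed by 35171038 in mouse 2. Mouse 3 also had the most genes with a count, 24304.

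Symbols, positions and exon lengths came from GENCODE M21 (GRCm38), which matched 47310 of 47729 gene IDs. The counts were fitted in edgeR 4.0.16 (R 4.3.3) with TMM, a filterByExpr minimum count of 10 and the quasi-likelihood test, in 1 fit of the 3 groups, with Benjamini-Hochberg adjustment over 16823 genes and thresholds of 0.05 (vehicle against healthy) and 0.1 (I-BET151 against vehicle). SE is the size of the log2 fold change over the square root of F. Log2 CPM used a prior count of 2. DESeq2 1.42.0 and the other alternatives are in the closing section. The scripts were tested on simulated data. Total counts of 34711229 to 53365596 per mouse limit precision mainly for Arntl2 and Npas2. Replicates are separate mice.

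The members and lists were chosen with earlier results of these data known. Named were all members, each list gene past its threshold, or, where fewer than 2 of a list passed, the 2 of that list with the largest log2 fold changes, and the 5 genes most similar to Arntl2, Arntl and Dbp. Other genes without a call that are named for a setting were chosen after their values were seen. A gene picked by this rule is not reported here.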

Additional observations from a re-analysis of the deposited data

Results flagged for a closer look

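Within groups of 4 mice, a mouse was marked where its gap to the nearest other mouse was too large a part of the range of its group by Dixon's criterion at the 95% level. Chance marks about 1 in 20 groups that are independent and picked without regard to their values. The groups here share libraries, and some genes were named after their values were seen. In I-BET151 mouse 3, 62.6% of all 16823 tested genes had their highest or lowest level of all mice. The share of all genes marked by this criterion was not computed, so nothing about clock genes is read from the count. With that limit, 10 of 69 gene and group combinations were marked, all in the I-BET151 group. In I-BET151 mouse 3 these were the highest Arntl2 (8.07 CPM), Per2 (138 CPM) and Nr1d1 (126 CPM) and the lowest Clock (22.9 CPM) of the group. In I-BET151 mouse 4 they were the highest Npas2 (1.84 CPM), Nfil3 (30.2 CPM), Mt1 (746 CPM) and Mt2 (741 CPM). The others were the highest Elovl3 (32.7 CPM, I-BET151 mouse 2) and the lowest Tsc22d3 (51.1 CPM, I-BET151 mouse 1).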

How the results depend on the processing

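Genes called for vehicle against healthy numbered 1195 as reported, 742 with a replicate block, 37 with sequencing lane as a covariate, 3879 in a fit of the 2 groups alone and 1892 with DESeq2, and for I-BET151 against vehicle 59 as reported, 101 without the count filter, 10 with the replicate block, 0 with lane, 8 in the fit of 2 groups and 268 with DESeq2. Lane was largely confounded with group, as given above. Leaving out 1 mouse gave 546 to 3779 and 13 to 403 genes, both highest without I-BET151 mouse 3. Mouse numbers did not pair the mice (mean r of same-numbered deviations -0.07 and -0.06 in the 2 comparisons).

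Members called for vehicle against healthy numbered 1 as reported, 0 with lane, 5 in the fit of 2 groups and 1 to 5 when 1 mouse was left out, and for I-BET151 against vehicle 1 as reported, 0 with the replicate block, with lane and in the fit of 2 groups, and 0 to 2 when 1 mouse was left out. Further clock genes called for vehicle against healthy numbered 2 as reported, 1 with RLE normalization, 0 with lane, 8 in the fit of 2 groups and 0 to 6 when 1 mouse was left out, and for I-BET151 against vehicle 0 as reported, 1 without the count filter, 1 with DESeq2 and 0 to 1 when 1 mouse was left out. The causes were not tested.

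Among the further genes with values given above, signs changed under I-BET151 for Bhlhe41, Csnk1e, Fbxl21, Mt2 and Mt1. Their ranges when 1 mouse was left out were -0.24 to 0.46 (-0.068 with lane), -0.079 to 0.45, -0.13 to 0.45, -0.78 to 1.54 and -0.52 to 1.28. The sign also changed for Csnk1e between vehicle and healthy mice (-0.085 with lane). Under I-BET151 the metallothioneins were lowest without I-BET151 mouse 4 and the others without mouse 3. Among the members, signs changed under I-BET151 for Per1 in 7 of 18 alternatives, Dbp in 4, Arntl in 2, Per2 in 1 and Per3 in 1. Between vehicle and healthy mice they changed for Npas2 in 3 (-0.14 to 0.14) and Dbp in 3 (-0.13 to 0.37). The r of Arntl and Npas2 was 0.893, of Arntl and Per3 -0.673 and of Arntl and Nr1d1 0.0432 without the 2 outermost mice, and without I-BET151 mouse 3 those of Per3 and Nr1d1 were -0.761 and 0.0298. The likeness of genes without I-BET151 mouse 3 was chosen after seeing the data. Depth limits Arntl2 and Npas2 most.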
